A study of Mus musculus with 12 samples.

Results

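The interferon-inducible GTPases described here are 9 of the 24444 genes in the deposited tables: the guanylate-binding proteins Gbp2, Gbp3 and Gbp7, the immunity-related GTPases Igtp, Irgm1, Irgm2 and Iigp1, and the very large GTPase gene Gvin1 with its relative Gm18853. They were chosen by gene symbol. Transcripts were measured by bulk RNA sequencing of marrow from C57BL/6 mice, in 4 groups of 3 libraries. In aged_WT the mice had intact Hopx, the label calls them aged and the stated age is 18 weeks. In aged_KO the mice lacked Hopx, with the same label and age. MN1_WT and MN1_KO are the Hopx wild-type and Hopx-knockout arms of an experiment in which MN1 was overexpressed, with a stated age of 16 weeks. Hopx encodes a homeodomain-only protein that does not bind DNA itself, and MN1 is a transcriptional coregulator that drives myeloid leukaemia when overexpressed in marrow cells. The labels do not say how either allele was made, how MN1 was delivered, the sex of the mice or whether libraries of a group came from separate mice, so p-values measure only the spread between these libraries.

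Interferon-inducible GTPases are among the strongest transcriptional targets of interferon-gamma in mouse cells. Guanylate-binding proteins and the effector immunity-related GTPases such as Iigp1 assemble on the vacuoles of intracellular pathogens and break them open. The regulatory members Irgm1, Irgm2 and Igtp sit on the cell's own membranes and hold the effectors inactive there, and Irgm1 is also known for protecting haematopoietic stem cells during interferon exposure. Their promoters are known for 2 kinds of interferon response element, the gamma-activated site (GAS) and the interferon-stimulated response element (ISRE), the latter bound by interferon regulatory factors.

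The members lie in gene clusters. In GRCm38 (GENCODE M21), Gbp7 (chromosome 3, 142530342 to 142550149), Gbp3 (142560026 to 142573209) and Gbp2 (142620602 to 142638008) follow one another on the plus strand. Igtp (chromosome 11, 58199556 to 58207591) and Irgm2 (58199618 to 58222782) lie on the plus strand, and their models share 162 exon bases. Irgm1 (48861968 to 48871683) lies on the minus strand of the same chromosome. Iigp1 is the only member on its chromosome, where its relatives Gm4951, Gm4841 and F830016B08Rik also lie. Gvin1 spans 106156556 to 106215326 on the minus strand of chromosome 7. Gm18853 (106186404 to 106189999), an unprocessed pseudogene in that annotation, lies inside Gvin1 on the same strand and has 0 bases in its exons.

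Library totals ran from 16544407 to 28409046 expected counts. Hopx stood between 14.1 and 33.6 CPM (counts scaled to a common library total) in the 6 wild-type libraries, between 0 and 0.121 CPM in aged_KO and between 2.92 and 3.51 CPM in MN1_KO. Mn1 did not follow the labels in every library: MN1_WT replicates 2 and 4 held 0.395 and 0.16 CPM, within the range of the aged libraries (0.0704 to 1.18), while MN1_WT replicate 3 held 36.4 CPM and the MN1_KO libraries 22.1 to 47.3 CPM. For the members, log2 fold changes that use the libraries labelled MN1_WT are therefore also given without replicates 2 and 4, except for Gm18853, whose values are given by library. This leaves 1 MN1_WT library, whose own spread is unknown, so those values are given with no test. The aged and the MN1 libraries came in separate tables, so the MN1 label, the age and the table cannot be told apart. The knockout groups differed in residual Hopx transcript as well, which cannot be told apart from the label, the age or the table either. In keeping with the marrow label, the neutrophil marker list summed to between 25700 and 118000 CPM per library. In bulk samples, fewer cells of a type and less RNA per cell cannot be told apart.

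RefSeq promoter windows, from 250 bases before to 50 after a start, were at hand for 6 of the 9 members. The bases upstream of the start that each window is set on are shown for these 6. Capitals mark every match, on either strand, to 3 motifs. The GAS was searched as TTCNNNGAA. The ISRE core was searched as TTTC, any 2 bases, TTTC, and the full ISRE as the same preceded by AG, so each ISRE match contains a core match. All are from GRCm38.p6 and read 5′ to 3′ along the gene's strand: Gbp2 from chr3:142620543-142620621, Gbp3 from chr3:142559924-142560043, Gbp7 from chr3:142530216-142530335, Irgm1 from chr11:48871421-48871540 (minus strand), Igtp from chr11:58199436-58199555 and Irgm2 from chr11:58214857-58214976. The Gbp2 stretch stops short of its RefSeq start, 20 bases into the first exon of a GENCODE transcript. Gbp3 has more than 1 annotated start, and its stretch takes in the first 18 bases of the GENCODE gene model. The Irgm1 and Irgm2 stretches lie upstream of their RefSeq starts but inside the longer spans of their GENCODE gene models. Both have 0 bases in untranslated regions annotated there.
Gbp2: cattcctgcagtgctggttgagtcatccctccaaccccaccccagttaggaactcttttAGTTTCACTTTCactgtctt
Gbp3: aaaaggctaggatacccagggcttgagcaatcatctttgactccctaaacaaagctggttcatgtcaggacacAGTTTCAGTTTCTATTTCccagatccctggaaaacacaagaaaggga
Gbp7: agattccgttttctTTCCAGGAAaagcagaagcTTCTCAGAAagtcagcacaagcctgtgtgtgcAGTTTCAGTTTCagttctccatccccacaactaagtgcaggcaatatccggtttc
Irgm1: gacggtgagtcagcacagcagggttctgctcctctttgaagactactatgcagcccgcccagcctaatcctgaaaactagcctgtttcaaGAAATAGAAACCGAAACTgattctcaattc
Igtp: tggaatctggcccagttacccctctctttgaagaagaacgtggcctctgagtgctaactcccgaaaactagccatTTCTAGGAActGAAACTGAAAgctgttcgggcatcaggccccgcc
Irgm2: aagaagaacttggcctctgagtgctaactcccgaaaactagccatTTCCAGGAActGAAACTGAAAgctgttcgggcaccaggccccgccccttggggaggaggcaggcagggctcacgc

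The 6 genes have 7 windows, with a further one for Gbp3 that held none of the 3 motifs. The ISRE was found in 4 of the 7 (Gbp2, Gbp3, Gbp7 and Irgm1), against 0.271% of all 32851 promoter windows. The ISRE core was found in 6 of 7, against 3.44% of all windows. The GAS letters were found in 3 of 7 (Gbp7, Igtp and Irgm2), against 8.3% of all windows. Igtp and Irgm2 carry nearly the same stretch: at the best alignment 87 of 90 bases were identical (96.7%). In both, the GAS match begins 11 bases before the ISRE core, a spacing also found in Tgtp1 and Tgtp2, a near-identical pair of effector immunity-related GTPases outside the set. The motifs were also found in relatives outside the set. Of 10 other GTPase genes with windows, 7 held the ISRE core, 4 the GAS letters and 2 the ISRE. These matches describe the letters in the windows and are not measurements of binding. Any link between them and transcript levels was not tested.

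**Figure D1:**
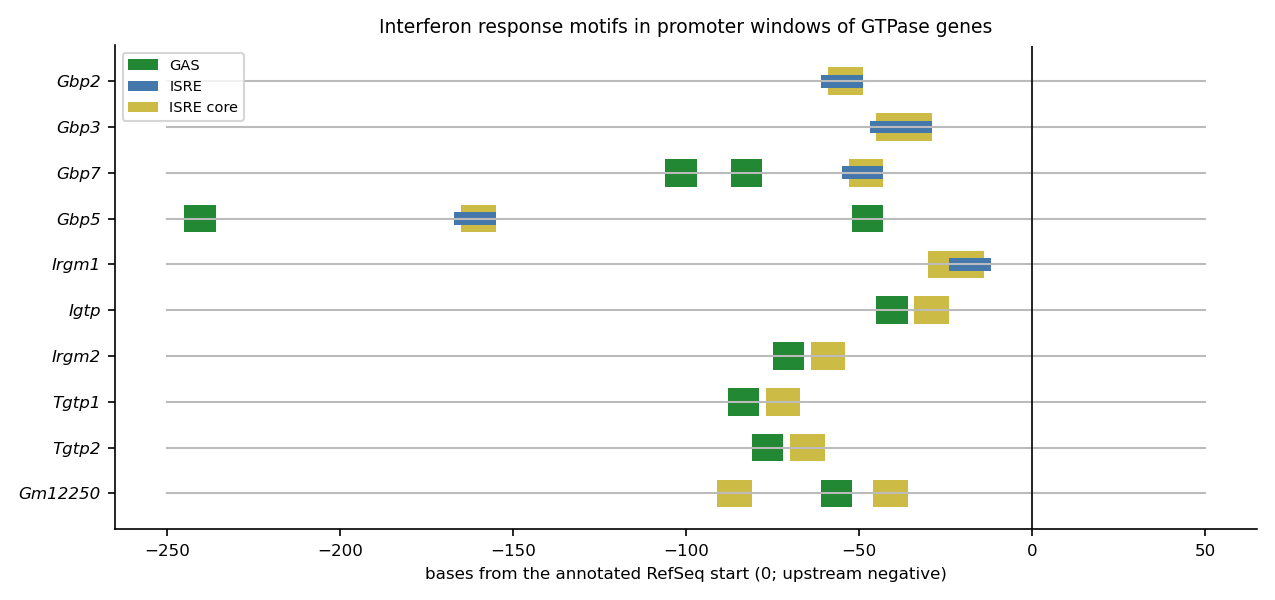
Matches to the GAS (green), ISRE (blue) and ISRE core (yellow) letters in RefSeq promoter windows of 6 member genes and 4 relatives, by distance in bases from the annotated start. Igtp, Irgm2, Tgtp1 and Tgtp2 show the same GAS and core pair, with 11 bases between the first letters.

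Per transcript length, the members covered a wide range of levels. Over the 12 libraries the median was 57.4 TPM (transcripts scaled by length and to a common total) for Igtp, 56.1 for Irgm1, 43.4 for Gvin1, 37.9 for Gbp2, 25.8 for Irgm2, 22.1 for Gbp3, 14.2 for Gbp7 and 8.41 for Iigp1. Gm18853 had a median of 0 TPM. The ranges of neighbours in this order overlapped: Igtp ran from 13.1 to 98.4 TPM and Irgm1 from 12.9 to 110. Among the 8 with a median above 0, Iigp1 varied most in proportion, from 0.2 to 60.8 TPM. The 7 GBP and IRG members followed one another across libraries, with a median Pearson correlation of 0.85 over 21 pairs (range 0.52 to 0.96, log2 CPM, 12 libraries sharing 2 tables). Gvin1 followed them less closely, at 0.42 to 0.65.

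**Figure D2:**
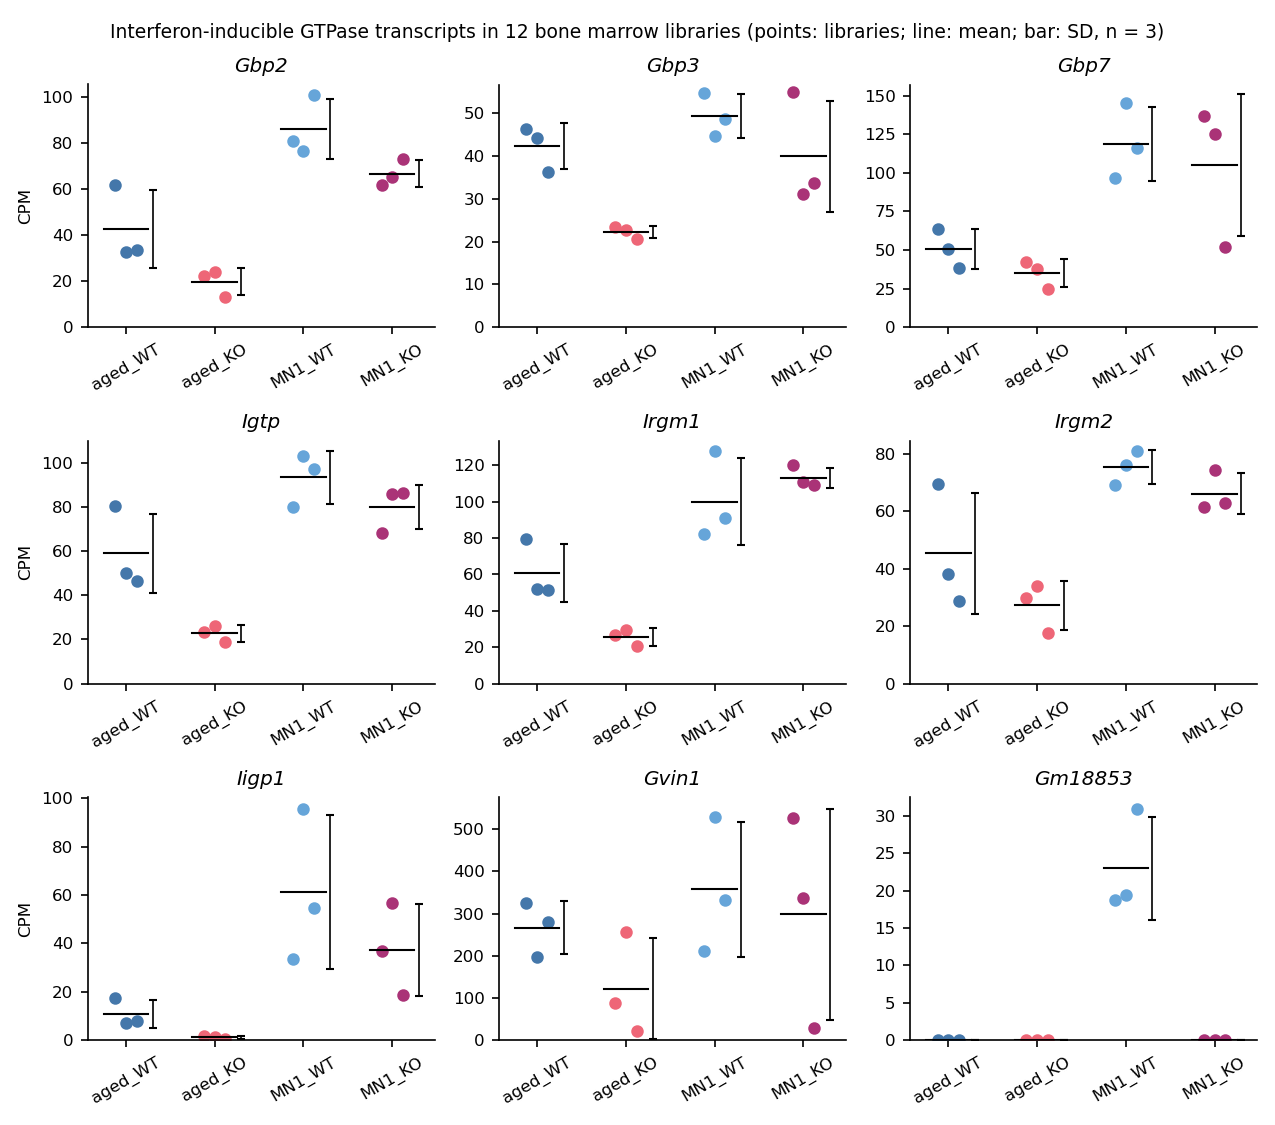
CPM of each member in the 12 libraries, by group; points are libraries, the line is the group mean and the bar its SD (n = 3). For Iigp1 the aged_KO libraries lie between 0.423 and 1.7 CPM, below every other library, and for Gm18853 only the MN1_WT libraries lie above 0.1 CPM.

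In aged marrow, members of both families were lower without Hopx, and Iigp1 fell furthest. The comparison asks what loss of Hopx changes in marrow without MN1. Of the 8 members tested, 4 fell (Gbp3, Igtp, Irgm1 and Iigp1; edgeR quasi-likelihood test, adjusted p under 0.05) and 0 rose, where 15.8% of all 12771 genes tested fell. All 8 fold changes were below 0, with a median of -0.92 on the log2 scale, against -0.02 over all genes tested.

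The immunity-related GTPases gave the largest differences. Iigp1, an effector that disrupts pathogen vacuoles, stood at 17.5, 7.25 and 7.96 CPM in aged_WT replicates 1, 6 and 7 and at 1.7, 1.2 and 0.423 CPM in aged_KO replicates 3, 9 and 10. The groups did not overlap, and the log2 fold change was -3.09 ± 0.51 (SE, n = 3 and 3; edgeR adjusted p = 0.00441), or 8.52-fold lower. Igtp, a regulatory member of the endoplasmic reticulum, stood at 80.3, 50.3 and 46.6 CPM against 23.4, 26.2 and 18.7 CPM. Every knockout library lay below every wild-type library (log2 fold change -1.19 ± 0.24, edgeR adjusted p = 0.0101). Irgm1, a regulatory member of the Golgi and lysosomes, stood at 79.7, 51.8 and 51.4 CPM against 26.8, 29.7 and 20.4 CPM. It fell by the same order as Igtp, again without overlap (log2 fold change -1.06 ± 0.22, edgeR adjusted p = 0.0104). Irgm2, the remaining regulatory member, stood at 69.4, 38 and 28.6 CPM against 29.9, 34.1 and 17.6 CPM. Its groups overlapped and it did not pass (log2 fold change -0.55 ± 0.41, edgeR adjusted p = 0.357).

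Among the guanylate-binding proteins, Gbp3 stood at 46.3, 44.3 and 36.2 CPM in aged_WT and at 23.3, 22.7 and 20.7 CPM in aged_KO. The knockout libraries were close together and all below the wild type (log2 fold change -0.75 ± 0.13, edgeR adjusted p = 0.00386). Gbp2, which is recruited to vacuoles and bacteria, stood at 61.9, 32.6 and 33.4 CPM against 22.1, 24.1 and 13 CPM. Its groups did not overlap either, but the difference did not pass with edgeR (log2 fold change -0.92 ± 0.35, edgeR adjusted p = 0.0893). It did with DESeq2 (DESeq2 adjusted p = 0.00944). Replicate 1 stood well above the other wild-type libraries. Without that replicate the difference was smaller and did not pass either (-0.53, edgeR adjusted p = 0.164). Gbp7 stood at 63.5, 50.6 and 38.4 CPM against 42.1, 37.9 and 24.9 CPM, with overlapping groups (log2 fold change -0.36 ± 0.24, edgeR adjusted p = 0.286). In all, 5 of the 8 tested members had no overlap between groups in the lower direction, against 38.4% of all genes tested. aged_WT replicate 1 was the highest of its group for 7 of the 7 GBP and IRG members, and aged_KO replicate 10 the lowest of its group for 7 of 7; the 4 calls held without either library.

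**Figure D3:**
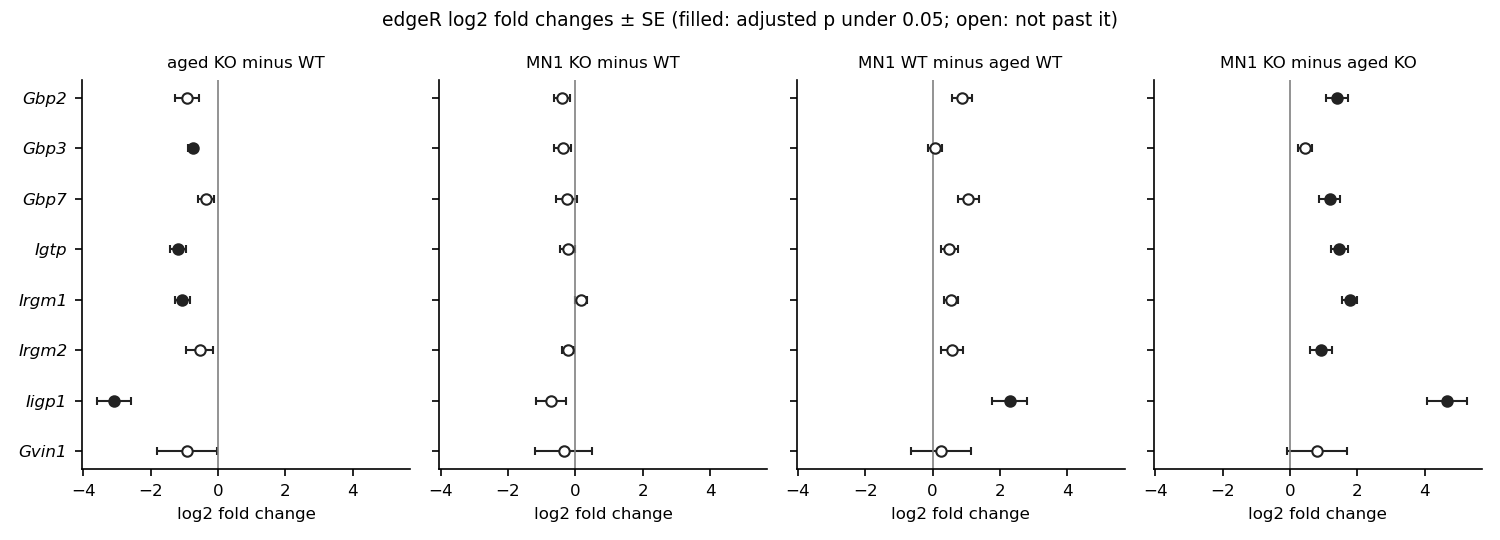
edgeR log2 fold changes with SE for 8 members in the knockout comparison within each experiment and in the MN1 comparison within each genotype; filled points have an adjusted p under 0.05. Gm18853 is left out because groups at 0 counts give no estimate. Filled points lie left of 0 in the aged knockout comparison and right of 0 in the 2 comparisons on the right.

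Among the other GTPases of these families, the calls in aged marrow were all downward. Of 23 tested, 13 fell and 0 rose, with a median log2 fold change of -1.13, where 15.8% of all genes tested fell. The GBP relatives Gbp4 (-2.22 ± 0.29), Gbp5 (-1.13 ± 0.22), Gbp6 (-2.44 ± 0.37), Gbp9 (-1.6 ± 0.44) and Gbp10 (-2.47 ± 0.45) fell. Gbp10 rested on 61 counts over aged_WT and 10 over aged_KO. Gbp6 and Gbp10 share 59% and 63.6% of their 100-base windows with the annotated gene Gm43302, so their counts are uncertain. Gbp4 went from 18.6, 15.6 and 23 CPM to 5.05, 3.73 and 1.93 CPM. The effector immunity-related GTPases Tgtp1 (-2.14 ± 0.4) and Tgtp2 (-2.31 ± 0.46) fell, as did Gm12250 (-1.49 ± 0.39) and Gm4841 (-2.38 ± 0.62). Gm4841 rested on 73 counts over aged_WT and 13 over aged_KO. Gm4951 held 108 counts over aged_WT and 3 over aged_KO, a ratio of 38 (exact 95% interval 12.7 to 187, counting error only; edgeR adjusted p = 0.00358). Of the dynamin-like Mx genes, a family of antiviral GTPases induced by type I interferon, Mx1 (-1.31 ± 0.29) and Mx2 (-1.45 ± 0.42) fell. RefSeq lists both as transcribed pseudogenes, while GENCODE lists Mx1 as protein coding and Mx2 as a polymorphic pseudogene. Their transcripts therefore do not stand for functional protein. Of the Gvin cluster Gm4759 fell (-1.05 ± 0.34). The 10 that did not pass were Gbp8, Gm5431, F830016B08Rik, 9930111J21Rik1, 9930111J21Rik2, Irgq, Gm4070, Gm17757, Gm1966 and Gm8979, with log2 fold changes from -1.08 to 0.43. Of these, Gbp8 passed without aged_KO replicate 3 (edgeR adjusted p = 0.00622), Gm5431 without replicate 9 (0.0208), Gm17757 without replicate 9 or 10 (0.0423 and 0.0433), and Gm1966, the other way, without replicate 10 (0.041). DESeq2 called Gbp8 (adjusted p = 0.033), Gm5431 (0.0421) and Gm17757 (0.00972). The calls of Gbp9, Gm12250, Gm4841, Gm4759 and Mx2 were lost when single libraries were left out, with edgeR adjusted p-values up to 0.0864, 0.0683, 0.0694, 0.144 and 0.0819 in that order; for each of the 5 this included the fit without aged_WT replicate 6 or aged_KO replicate 9. Tgtp1 and Tgtp2 share 70.3% and 76.8% of their 100-base windows with each other, so their split is uncertain; summed, they fell by 2.28 on the log2 scale. With all 12 libraries in 1 fit, the calls of Tgtp1 (edgeR adjusted p = 0.051), Mx1 (0.0509), Gbp9 (0.0708), Gm4841 (0.094), Mx2 (0.293) and Gm4759 (0.474) were lost.

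Upstream of the GTPases, the ligand was lower and neither receptor chain fell. Ifng, the interferon-gamma gene, stood at 1.45, 1.86 and 4.77 CPM in aged_WT and at 0.439, 0.387 and 0.484 CPM in aged_KO. It fell without overlap (log2 fold change -2.43 ± 0.49, edgeR adjusted p = 0.0068), on 161 and 27 counts over the groups. Of 5 ligand and inducer genes tested, 3 fell and 1 rose, where 15.8% of all 12771 genes tested fell. Il18 (-0.93 ± 0.22) and Il12a (-0.87 ± 0.24), cytokines that elicit interferon-gamma, fell with Ifng, and Il27 rose (0.88 ± 0.29). The receptor chains Ifngr1 (0.27 ± 0.1, edgeR adjusted p = 0.0571) and Ifngr2 (0.15 ± 0.16, edgeR adjusted p = 0.511) did not pass; Ifngr1 passed as higher with RLE scaling (adjusted p = 0.0477) and DESeq2 (0.012).

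Of 17 receptor and signalling genes, 2 fell and 1 rose, where 15.8% of all genes tested fell. Irf8, an interferon regulatory factor of monocytes, dendritic cells and B cells, fell (-1.43 ± 0.16), as did Socs1, a feedback inhibitor of interferon signalling (-0.78 ± 0.24), while Socs3, a feedback inhibitor of IL-6 family signalling, rose (1.26 ± 0.17). Irf1, an interferon-induced regulatory factor, stood at 133, 98.7 and 121 CPM against 78, 90.4 and 64.8 CPM, without overlap, and did not pass (-0.41 ± 0.16, edgeR adjusted p = 0.0887; 0.0285 without aged_KO replicate 9).

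Among interferon response genes the calls went down only. Over all 12771 genes tested, 15.8% fell and 1987 rose. The share of type I response genes that fell was not far above that of all genes. Of 21 interferon-gamma targets outside the GTPase families, 16 fell and 0 rose (median log2 fold change -0.74), among them the class I antigen H2-K1 (-1.03 ± 0.12), Serpina3g (-1.22 ± 0.16), Ly6a (-1.84 ± 0.23) and the immunoproteasome subunit Psmb10 (-0.65 ± 0.09). Of 24 type I response genes, 5 fell and 0 rose (median -0.34): Bst2 (-1.51 ± 0.15), Ifi44 (-1.96 ± 0.3), Xaf1 (-1.26 ± 0.23), Isg15 (-1.37 ± 0.27) and Usp18 (-1.36 ± 0.34). Of 10 autophagy and membrane-targeting genes, which direct these GTPases to membranes, 0 fell and 2 rose, among them Atg7 (0.51 ± 0.1). Of 7 inflammasome genes, which act downstream of guanylate-binding proteins, 0 fell and 2 rose (Casp4, 0.72 ± 0.15, and Gsdmd, 0.29 ± 0.1). Leaving out single libraries ended the calls of Il12a, Il27, Socs1 and Gsdmd, with edgeR adjusted p-values up to 0.08, 0.141, 0.122 and 0.158, and that of Il18 without aged_WT replicate 6 (0.0626). With all 12 libraries in 1 fit those 5 calls were lost too, as were those of Irf8 (edgeR adjusted p = 0.219), Atg7 (0.393), Casp4 (0.064), Psmb10 (0.0637), Ifi44 (0.0993) and Isg15 (0.0615). Whether the call of Usp18 held in such fits was not examined.

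Markers of several cell types differed as well. Over all 12771 genes tested, 15.8% fell and 1987 rose. The shares of monocyte and macrophage markers and of endothelial markers that fell were not far above that of all genes. The summed level of 7 B cell markers ran from 393 to 909 CPM in aged_WT and from 20.6 to 32.2 CPM in aged_KO, and 7 of 7 fell. The 9 T and NK cell markers, cells that make interferon-gamma, summed to 163 to 219 CPM against 106 to 189 CPM, and 8 of 9 fell. The 6 dendritic cell markers summed to 149 to 174 CPM against 40.7 to 143 CPM, and 4 of 6 fell. The 8 monocyte and macrophage markers summed to 2430 to 3500 CPM against 2500 to 2730 CPM, and 2 of 8 fell. The 10 neutrophil markers summed to 76600 to 98500 CPM against 98500 to 118000 CPM, and 7 of 10 rose. Of the plasma cell, erythroid, platelet and endothelial markers 4 of 5, 5 of 6, 4 of 4 and 1 of 5 fell, and the globin gene Hbb-bs was at 0 in aged_KO, as it was in MN1_KO. The erythroid markers still summed to 370 to 622 CPM in aged_KO, against 982 to 5610 CPM in aged_WT, and to 127 to 1380 CPM in MN1_KO. Why Hbb-bs alone was at 0 was not tested. No other marker listed was at 0 in all libraries of either group. Their part in the GTPase results was not tested.

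**Figure D4:**
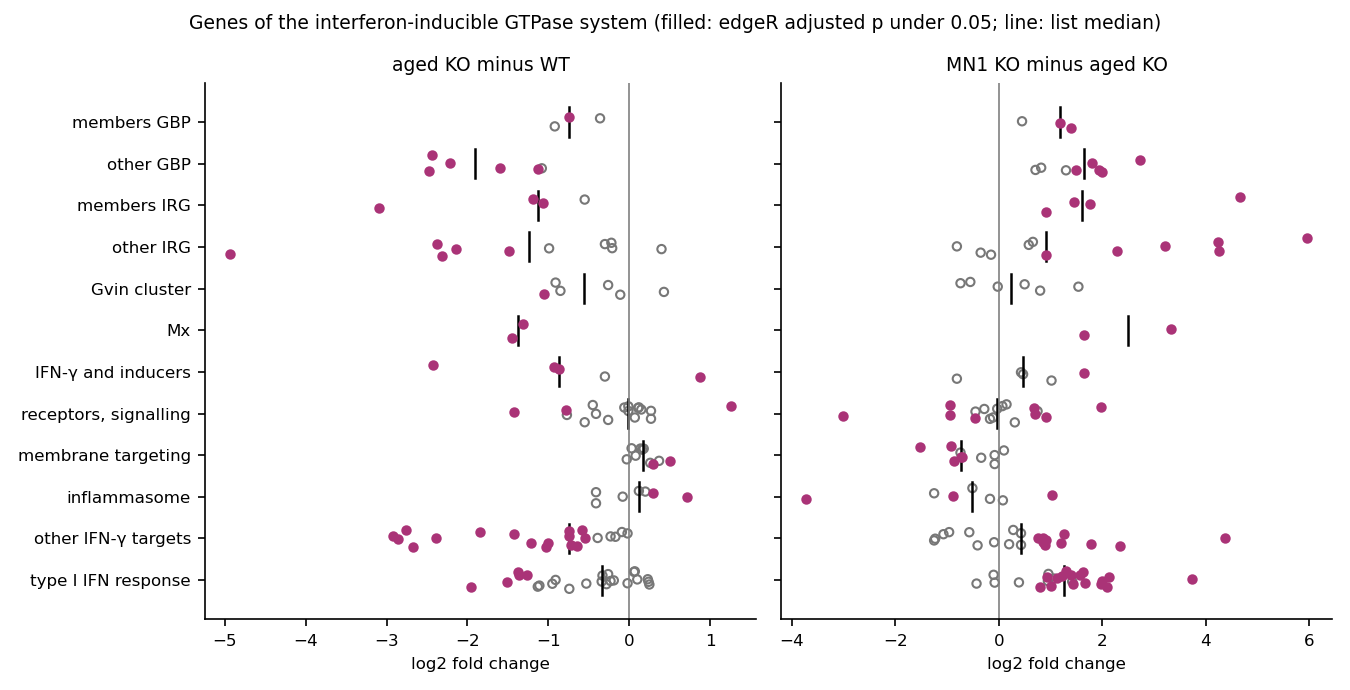
log2 fold changes of the members, their relatives and the genes around them, by list, for aged knockout against aged wild type (left) and MN1 knockout against aged knockout (right); filled points have an edgeR adjusted p under 0.05, and the black line is the list's median. Filled points of the GTPase lists lie below 0 on the left and above 0 on the right.

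In the MN1 experiment, no member passed between knockout and wild type with edgeR; DESeq2 and limma called 1, Gm18853, described with its copy further on. Of 9 tested, 0 fell and 0 rose, where 0% of 13525 genes passed (0 genes with edgeR, 1353 at an unadjusted p under 0.05, 565 with DESeq2 and 6 with limma). Hopx itself, the gene knocked out, did not pass in this edgeR fit either (log2 fold change -2.84, without overlap between groups). A missing call here therefore does not show that a gene was unchanged. Iigp1 was measured at 33.5, 95.5 and 54.5 CPM in the MN1_WT libraries (replicates 2, 3 and 4), against 36.7, 56.7 and 18.8 CPM in the MN1_KO libraries (replicates 5, 7 and 8). Its groups overlapped (log2 fold change -0.73 ± 0.45, edgeR adjusted p = 0.676). Irgm1 stood at 82, 128 and 91.3 CPM against 120, 111 and 109 CPM (0.17 ± 0.17, edgeR adjusted p = 0.815). Igtp stood at 80.1, 103 and 97.4 CPM against 68.2, 85.8 and 86.5 CPM, and Irgm2 at 69.1, 75.9 and 80.9 CPM against 61.3, 74.2 and 62.7 CPM. Gbp2 was the only one of the 7 GBP and IRG members without overlap, at 81, 76.6 and 101 CPM against 61.9, 65.1 and 73 CPM (-0.4 ± 0.24, edgeR adjusted p = 0.672); 8.33% of all genes tested were lower without overlap. Gbp3 stood at 54.7, 44.6 and 48.7 CPM against 55, 31 and 33.7 CPM, and Gbp7 at 96.7, 145 and 116 CPM against 137, 125 and 52 CPM. The 25 other GTPases tested gave 0 calls (median -0.61). Without MN1_WT replicates 2 and 4 the log2 fold change was -1.23 for Iigp1, -0.36 for Gbp7 and -0.2 for Igtp. It lay between -0.04 and -0.01 for Irgm2, Gbp2, Gbp3 and Irgm1.

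The knockout effect in the MN1 experiment minus that in the aged one was tested directly. The knockout groups differed in residual Hopx transcript, so the effects compared do not come from an equal loss of Hopx transcript. All 8 members tested had a difference above 0, and 0 of 8 passed, where 3.32% of 13937 genes did. The closest was Irgm1, with a difference of 1.23 ± 0.3 on the log2 scale (edgeR adjusted p = 0.052), then Iigp1 (2.37 ± 0.75, adjusted p = 0.101) and Igtp (0.96 ± 0.34, adjusted p = 0.139). DESeq2 called Irgm1 (adjusted p = 0.00667) and Iigp1 (0.0215), limma called Irgm1 (0.0457), and both called Gm18853 lower, which was at 0 rounded counts in both aged groups. edgeR called both without MN1_WT replicate 3, the one with high Mn1 (adjusted p = 0.0159 and 0.0284). Without MN1_WT replicates 2 and 4 the 3 differences were 0.98, 1.79 and 0.92, and those of Gbp2, Gbp3, Irgm2, Gvin1 and Gbp7 were 0.82, 0.65, 0.44, 0.06 and -0.07.

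Between the knockout groups, most members were higher in the MN1 experiment than in aged marrow. The knockout groups' comparison shares the aged_KO libraries with the aged comparison above, so a low aged_KO value enters both. Hopx itself was also higher in MN1_KO than in aged_KO (log2 fold change 6.1, edgeR adjusted p under 0.05). Between MN1_KO and aged_KO, 6 of 8 members rose and 0 fell, where 21.1% of 13937 genes rose. Iigp1 rose from 1.7, 1.2 and 0.423 CPM to 36.7, 56.7 and 18.8 CPM (log2 fold change 4.66 ± 0.6, 25.3-fold; edgeR adjusted p = 0.00113). Irgm1 rose from 26.8, 29.7 and 20.4 CPM to 120, 111 and 109 CPM (1.77 ± 0.22, edgeR adjusted p = 0.00105). Every MN1_KO library was above every aged_KO library for both.

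Igtp (1.46 ± 0.25, edgeR adjusted p = 0.00308), Gbp2 (1.39 ± 0.32, adjusted p = 0.00873) and Gbp7 (1.18 ± 0.31, adjusted p = 0.0154) rose as well. Irgm2 passed narrowly (0.91 ± 0.33, edgeR adjusted p = 0.0493) and no longer did under another scaling (adjusted p = 0.0609 with RLE) or without any 1 of the 6 libraries (up to 0.151). Gbp7 no longer passed without aged_KO replicate 10 or MN1_KO replicate 5 or 7 (adjusted p = 0.0546, 0.0558 and 0.0576). Gbp3 did not pass (0.45 ± 0.2, edgeR adjusted p = 0.0907), although 7 of the 7 GBP and IRG members had no overlap between the groups, against 42.1% of all genes tested.

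Of the other GTPases, 13 of 26 rose and 0 fell, where 21.1% of all genes tested rose. Gm4951 gave the largest estimate (5.96 ± 0.85), followed by Tgtp1 (4.25 ± 0.61), Tgtp2 (4.24 ± 0.64), Mx2 (3.34 ± 0.82), Gm4841 (3.22 ± 0.77) and Gbp6 (2.73 ± 0.47). For Gm4951 this rested on 298 counts over MN1_KO against 3 over aged_KO, a ratio of 92.1 (exact 95% interval 31.2 to 449). Gbp4, Gbp5, Gbp10, Gbp11, Gm12250, Irgq and Mx1 rose by 0.91 to 2.29 on the log2 scale. Gbp10, Gbp11 and Gm4841 rested on 55, 40 and 168 counts over MN1_KO against 10, 7 and 13 over aged_KO. Leaving out single libraries, aged_KO replicate 3 among them, ended the calls of Gbp10, Gbp11 and Irgq (edgeR adjusted p up to 0.0889, 0.114 and 0.152). DESeq2 did not call Gbp11 (adjusted p = 0.056), and RLE scaling ended the call of Irgq (0.056). The 13 that did not pass were Gbp2b, Gbp8, Gbp9, Gm5431, F830016B08Rik, 9930111J21Rik1, 9930111J21Rik2, Irgc1, Gm4070, Gm17757, Gm1966, Gm8979 and Gm4759. Of these, Gbp8 passed without aged_KO replicate 3 (edgeR adjusted p = 0.0383), and Gm8979 and Gm4759 without MN1_KO replicate 8 (0.00739 and 0.0029). Gbp9 passed with DESeq2 (adjusted p = 0.0257) and limma (0.0343).

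The genes around them did not all move with the GTPases. Over all 13937 genes tested, 21.1% rose and 2345 fell. The receptor and signalling list was near those shares in both directions. Of 24 type I response genes 16 rose and 0 fell (median 1.26), among them Herc6 (1.4 ± 0.17), Dhx58 (1.62 ± 0.23), Xaf1 (1.97 ± 0.3) and Oasl1 (1.99 ± 0.33). Of 21 other interferon-gamma targets 10 rose and 0 fell (median 0.43), among them the chemokine Cxcl9 (4.38 ± 0.63), the class I transactivator Nlrc5 (1.79 ± 0.26), the peptide transporter Tap1 (1.26 ± 0.19) and Psmb8 (0.75 ± 0.13). Ifng stood at 0.987, 1.01 and 1.39 CPM in MN1_KO, above the aged_KO libraries, and did not pass (1.02 ± 0.61, edgeR adjusted p = 0.197); among the ligands and inducers 1 of 5 rose, Il12a (1.64 ± 0.38). Of the 17 receptor and signalling genes 4 rose (Ifngr1, 0.71; Stat2, 0.91; Irf7, 1.97; Irf9, 0.69) and 4 fell (Ifngr2, -0.94; Jak1, -0.95; Irf2, -0.46; Socs3, -3.01), while Irf1 (0.15 ± 0.27, edgeR adjusted p = 0.664) did not pass.

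Of the 10 membrane-targeting genes 0 rose and 5 fell, all of the autophagy conjugation system: Atg3 (-1.52 ± 0.24), Atg5 (-0.87 ± 0.18), Atg7 (-0.93 ± 0.33), Gabarapl2 (-0.73 ± 0.16) and Map1lc3b (-0.72 ± 0.17). Of the 7 inflammasome genes Aim2, a DNA sensor, rose (1.03 ± 0.2), and Pycard, its adaptor (-0.88 ± 0.25), and Il1b (-3.72 ± 0.6) fell. Among all 13937 genes tested, 21.1% rose and 2345 fell. The marker sums ran from 25700 to 85200 CPM in MN1_KO against 98500 to 118000 CPM in aged_KO for neutrophils, from 959 to 2250 against 2500 to 2730 CPM for monocytes and macrophages, and from 235 to 341 against 426 to 569 CPM for plasma cells. They ran from 92.6 to 245 against 35.6 to 73.3 CPM for platelets and from 60.7 to 162 against 31.2 to 52.5 CPM for endothelium. These 5 sums did not overlap. The sums overlapped for T and NK cells (117 to 139 against 106 to 189 CPM), dendritic cells (106 to 534 against 40.7 to 143 CPM), B cells (28.2 to 42.9 against 20.6 to 32.2 CPM) and erythroid cells (127 to 1380 against 370 to 622 CPM). Their part in the result was not tested. Leaving out single libraries, aged_KO replicate 3 among them, ended the calls of Ifngr2 and Pycard (edgeR adjusted p up to 0.154 and 0.0797). Whether the calls of Stat2, Irf2, Irf9 and Atg7 held in such fits was not examined.

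Between the wild-type groups, 2 of 9 members rose, Iigp1 and Gm18853, where 1.00% of 13937 genes rose. Iigp1 rose from 17.5, 7.25 and 7.96 CPM to 33.5, 95.5 and 54.5 CPM without overlap (log2 fold change 2.29 ± 0.52, edgeR adjusted p = 0.039). The call was lost when any 1 of the 6 libraries was left out (adjusted p between 0.0518 and 0.16). With MN1_WT replicate 3 alone, the only one with high Mn1, the log2 fold change was 2.83. Gbp7 (1.06 ± 0.31, edgeR adjusted p = 0.0762), Gbp2 (0.87 ± 0.31, adjusted p = 0.128), Irgm2 (0.57 ± 0.33, adjusted p = 0.299), Irgm1 (0.54 ± 0.21, adjusted p = 0.152), Igtp (0.5 ± 0.24, adjusted p = 0.23) and Gbp3 (0.07 ± 0.2, adjusted p = 0.836) did not pass; DESeq2 called Gbp7 (adjusted p = 0.0162). Without MN1_WT replicates 2 and 4 their log2 fold changes were, in the same order, 1.21, 0.54, 0.44, 0.76, 0.51 and -0.23. Of the 26 other GTPases 0 passed. MN1_WT replicate 3 stood apart for several: Tgtp2 was at 413 CPM there against 90 and 96.8 CPM in replicates 2 and 4, and Mx2 at 25.1 CPM against 2.42 and 2.96 CPM. In that library the dendritic cell markers summed to 731 CPM, against 49.2 and 47.4 CPM; their part was not tested.

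Gvin1 and Gm18853 need to be read with their copies. Gvin1, which encodes one of the largest interferon-inducible GTPases, shares 96.7% of its 100-base transcript windows with Gm4070, and Gm18853 shares 97% with the annotated gene Gm18852, listed in the tables under its RefSeq synonym Gm17757. Reads from such copies cannot be assigned with certainty. Gvin1 stood at 324, 198 and 280 CPM in aged_WT, at 88.1, 257 and 21.2 CPM in aged_KO, at 212, 530 and 333 CPM in MN1_WT and at 527, 338 and 28.7 CPM in MN1_KO. The libraries of 1 group differed by more than the groups did, and no comparison passed (edgeR adjusted p = 0.486 for the aged knockout and 0.922 for the MN1 knockout).

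The share of the cluster's counts given to Gm4070 changed from library to library: it was 225, 14.6 and 133 CPM in aged_KO replicates 3, 9 and 10, low where Gvin1 was high. The sum of Gvin1 and Gm4070 was steadier, at 465, 408 and 367 CPM in aged_WT, 313, 271 and 154 CPM in aged_KO, 653, 652 and 696 CPM in MN1_WT and 589, 443 and 135 CPM in MN1_KO. Every aged_KO sum was below every aged_WT sum, and every MN1_KO sum below every MN1_WT sum. Neither difference passed (log2 fold change -0.57, edgeR adjusted p = 0.108, and -0.87, adjusted p = 0.6). Without MN1_WT replicates 2 and 4 the log2 fold change of the MN1 knockout was -0.65 for the sum and -0.77 for Gvin1 alone, and that of Gvin1 between wild types was 0.69. Over all 7 genes of the cluster the summed level was 800 ± 130 CPM (SD, n = 3) in aged_WT and 669 ± 190 CPM in aged_KO (exact permutation test on log2 sums, two-sided, p = 0.5), and 1300 ± 120 CPM in MN1_WT and 811 ± 480 CPM in MN1_KO (exact permutation p = 0.2; the smallest p possible with 3 against 3 is 0.1).

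**Figure D5:**
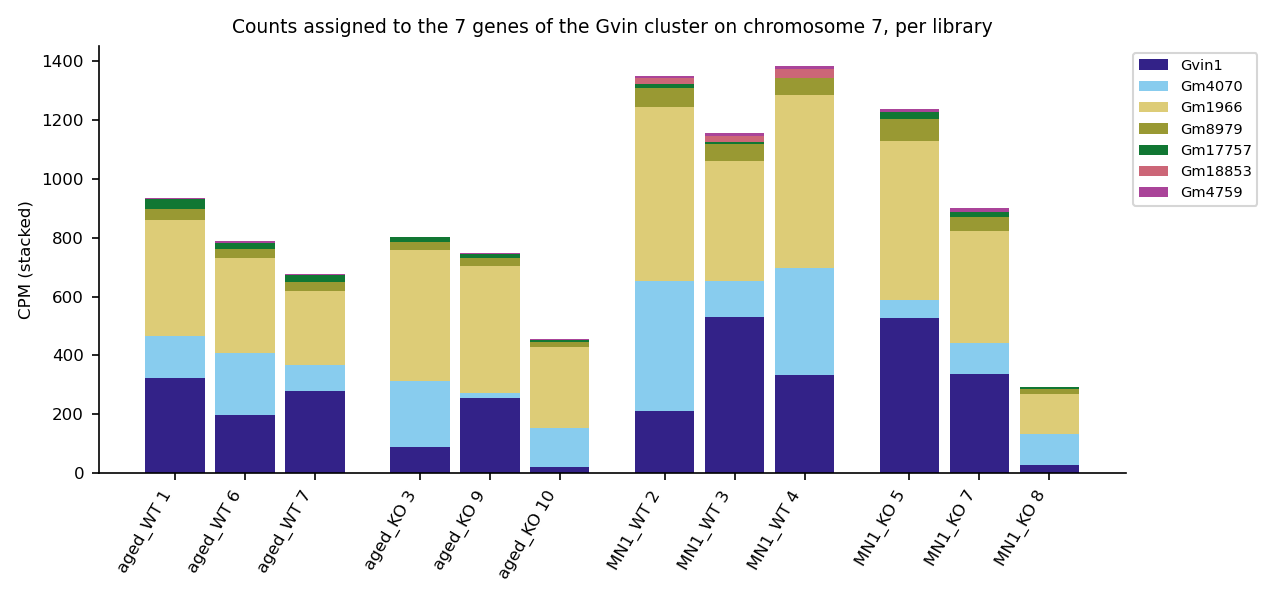
Stacked CPM of the 7 Gvin-cluster genes in each library. Gvin1 and Gm4070 trade places between libraries of 1 group, Gm18853 appears in the MN1_WT libraries only, and MN1_KO replicate 8 has the lowest total at 295 CPM.

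Gm18853 was all or none. It held 18.7, 19.4 and 30.9 CPM in MN1_WT replicates 2, 3 and 4 (1712 counts in all) and 0 rounded counts in each of the other 9 libraries. With a floor of 3 counts over a group, it was at least 412-fold higher in MN1_WT than in aged_WT (edgeR adjusted p = 0.00782) and at least 535-fold higher than in MN1_KO. The difference from MN1_KO did not pass with edgeR (adjusted p = 0.0986; 0.0172 without MN1_WT replicate 3) and did with DESeq2 (6.39e-17) and limma (0.00504). Its copy Gm17757 went the other way, at 15.1, 7.13 and 1.02 CPM in MN1_WT, against 32, 21.9 and 23.7 CPM in aged_WT and 21.8, 18.6 and 9.04 CPM in MN1_KO. The sum of both was not confined to MN1_WT: it was 33.8, 26.5 and 31.9 CPM in MN1_WT, 32, 21.9 and 23.7 CPM in aged_WT, 21.8, 18.6 and 9.04 CPM in MN1_KO, and 14.8, 15.3 and 7.56 CPM in aged_KO. In both experiments every knockout sum lay below every wild-type sum, while the MN1_WT and aged_WT sums overlapped. On the sum, neither the wild-type comparison (log2 fold change 0.11, edgeR adjusted p = 0.857) nor the MN1 knockout comparison (-0.98, adjusted p = 0.363) passed. Without MN1_WT replicates 2 and 4 the latter was -0.57.

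The genes whose levels followed the members most closely over the 12 libraries were searched among 10810 genes by Pearson correlation of log2 CPM; these are descriptions, since the libraries share groups, tables and cell mixtures. The mean of Gbp2, Gbp3 and Gbp7 was most like Cd274, which encodes the checkpoint ligand PD-L1 (r = 0.95), followed by Cxcl9, Sytl2 and Med18 (r = 0.92 each) and Fstl1 (r = 0.91). The mean of the 4 IRG members was most like Trim21, a cytosolic antibody receptor (r = 0.97), followed by Nlrc5, Tap1 and Cxcl9 (r = 0.95 each) and Il12rb1 (r = 0.94). Cd274 stood at 19.3, 17 and 18.3 CPM in aged_WT, 10.8, 9.51 and 8.89 CPM in aged_KO, 26.5, 31.7 and 31.6 CPM in MN1_WT and 31, 24.1 and 16.6 CPM in MN1_KO. It had the order of groups that Gbp2 had. Gvin1 was most like Padi2 and Ggps1 (r = 0.92 each), then Tbc1d4 (r = 0.91), with Rasa1 at r = 0.89.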

How the data were processed

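The values used are the expected counts and TPM that the authors deposited per gene symbol in 2 tables. Per the submitters' processing notes, the tools were Bowtie2 2.3.4.3 and RSEM 1.2.28 with genome build mm10; the gene annotation is not given in the sources used here. Expected counts were rounded; fractional values made up 5.2 to 6.84% of the genes of a library. The deposited TPM was used only to compare levels between genes; 12 further columns were not used. RSEM shares reads among similar genes by estimate, which bears on the Gvin, Tgtp and Gbp copies.

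CPM is the count scaled by the library total alone. For the tests, filterByExpr and TMM scaling were followed by the robust quasi-likelihood test of edgeR 4.0.16 (R 4.3.3), with Benjamini-Hochberg adjustment over all genes tested and a threshold of 0.05. Each knockout comparison was fitted on its own 6 libraries; comparisons across experiments and the difference of knockout effects were contrasts of a fit of all 12. The tests were tried on simulated data. Alternatives were RLE scaling, no filter, 5 CPM in 3 libraries, DESeq2 1.42.0, limma 3.58.1 (limma-trend), all 12 libraries in 1 fit, each library left out, and MN1_WT replicates 2 and 4 left out; summing near-identical copies was added after seeing the data. Members and gene lists were chosen with earlier results of these data known. Named genes are the 9 members, other tested GTPases, up to 4 genes of smallest p per further list, and Ifng, Ifngr1, Ifngr2 and Irf1; where few of a list passed, further ones are named, some chosen after their values were seen. Replicate counts differed by more than sampling noise, so no libraries were merged. A few genes that this rule takes in are not reported here.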

Additional observations from a re-analysis of the deposited data

How the results depend on the processing

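In the aged knockout comparison, 103 of 104 member values over 13 alternatives kept direction and call, and the other one, Gbp2 with DESeq2, gained a call; 4 members passed in each leave-one-out fit. The aged count of 4008 genes became 818 with all 12 libraries in the fit, and 2402 to 4599 with a library left out. The MN1 knockout count of 0 became 464 with all 12 libraries, 565 with DESeq2, 6 with limma and 0 to 896 leave-one-out; 1 member (Gm18853) passed with each of these 3 fits, and 0 to 1 leave-one-out (called without MN1_WT replicate 3). The 463 genes with differing knockout effects became 1671 with DESeq2, 40 without MN1_WT replicates 2 and 4, and 53 to 3337 leave-one-out; 3 members passed with DESeq2, 2 with limma (Gm18853 in both), and 0 to 2 leave-one-out. The 499 genes between wild types became 1791 with DESeq2, 313 under the 5 CPM filter, 2465 without MN1_WT replicates 2 and 4, and 78 to 397 leave-one-out; 3 members passed with DESeq2, 1 with copies summed and 1 in each leave-one-out fit. The 5281 genes between knockouts became 2515 to 7366 leave-one-out. The cause was not tested. Leaving out MN1_WT replicates 2 and 4 leaves 1 library in that group, assumed to vary like the others.

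Some directions turned. Leave-one-out ranges that crossed 0 were, in the aged comparison, 9930111J21Rik1 -0.48 to 0.09, Gm4070 -0.81 to 0.42 and Ifngr2 -0.03 to 0.3. In the MN1 knockout comparison they were Gbp7 -0.43 to 0.03 and Gvin1 -0.99 to 0.18. For the difference of knockout effects they were Gbp7 -0.1 to 0.39, Irgm2 -0.13 to 0.59 and Gvin1 -0.12 to 1.81. Between wild types they were Gbp3 -0.04 to 0.21 and Gvin1 -0.04 to 0.49. Between knockouts they were Gbp2b -0.66 to 1.2, Gm5431 -0.56 to 0.35, F830016B08Rik -0.06 to 1.15, Irgc1 -0.72 to 0.04, Gm17757 -0.28 to 0.23 and Irf1 -0.11 to 0.35. Without MN1_WT replicates 2 and 4, Irgm1 was -0.01 in the MN1 knockout comparison (also with copies summed), the Gbp7 difference of knockout effects was -0.07, and Gbp3 between wild types was -0.23. With copies summed the Gvin1 difference of knockout effects was -0.3. No paired analysis was possible because the groups compared share fewer than 2 replicate numbers. At this depth Ifng rested on 27 counts over aged_KO and 161 over aged_WT.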
